A study of Sus scrofa with 12 samples.

Results

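Elastic fibers and their microfibrils are the part of the cardiac extracellular matrix that lets tissue recoil after stretch, and 10 of their genes are described here in pig hearts after an ischemic injury. The genes are ELN, FBN1, FBN2, FBLN1, FBLN2, FBLN5, EMILIN1, MFAP2, MFAP4 and MFAP5, listed by name as known parts of these structures. They are 10 of the 35682 genes counted in each library, and all 10 passed the filter on low counts that left 13844 genes for testing. Gene expression was read by poly(A) RNA sequencing in 6 female Yorkshire pigs, 10 to 12 weeks old when the injury was made, named by their animal numbers 1022, 1322, 1323, 1623, 1922 and 3622, with 1 border zone and 1 remote zone library per animal. Every animal had had the left anterior descending artery closed by a balloon for 60 min, a model of ischemia-reperfusion injury, and was immunosuppressed from day 9 after the injury, with a daily dose of 20 mg of prednisolone, 500 mg of mycophenolate mofetil and, per kg, 0.75 mg of tacrolimus. On day 14 the heart surface was covered either with fibrin glue alone or with vascular organoids, which are sheets of human endothelial progenitor cells and smooth muscle cells, fixed with the same glue. Hearts were taken 4 weeks later. The border zone is the tissue next to the infarct and the remote zone is the posterior wall of the same injured and immunosuppressed heart, so neither region stands for an uninjured heart. Which animals received organoids is not given in the labels used here, so each region mixes both groups and the treatment was not compared. The region was taken from the sample titles, while the extraction text of all 12 samples speaks of the border zone only.

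An elastic fiber has a core of cross-linked elastin, which cells secrete as tropoelastin, laid down on a scaffold of fibrillin microfibrils. Fibulins, EMILIN1 and the microfibril-associated proteins bind the core, the scaffold or both, and lysyl oxidases cross-link the elastin. In the heart these fibers lie in vessel walls, valves, the endocardium and the interstitium, and fibroblasts and smooth muscle cells are the main makers of their proteins. Fibrillin microfibrils also hold latent TGF-beta in the matrix through its binding proteins.

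Library totals ran from 15130210 to 30526110 counts in the border zone and from 20091415 to 31618680 in the remote zone. Counts on the members were far above 0 in every library, from 48 to 688 for FBN2, the member with the fewest reads, and from 927 to 35977 for ELN. All 9 cardiomyocyte markers with an identifier, of 10 listed were counted in all 12 libraries. The border zone library of animal 1022 stood apart: its 10 fibroblast markers summed to 59212 CPM (counts scaled to the TMM-normalized library size), against 2960 to 11239 CPM in the other border zone libraries, with COL1A1, COL1A2 and COL3A1 giving 95.7% of it, and its cardiomyocyte markers summed to 10631 CPM, the lowest of the 12. The border zone library of animal 3622 had the lowest total and listed 28024 genes, against 17563 to 20148 in the other border zone libraries. Reads on the mitochondrial genes took 5.69% to 17.3% of border zone counts and 13.6% to 33.5% of remote zone counts. Fits of the 10 members are therefore also given without animal 1022, while the fits printed for single pathway genes and markers include it.

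The promoters of ELN, FBLN1 and FBLN5 are printed because the first 2 of these genes rose in the border zone and FBLN5 was not called. Each window runs from 250 bases before to 50 bases after the RefSeq gene start on Sscrofa11.1, the build of the count files, is written 5′ to 3′ along the gene, and has motif matches in capitals. Searched on both strands were the letters TATAAA for the TATA box, the letters GGGCGG for the GC box of SP and KLF factors, the letters GGAATG for TEAD factors, the letters TGANTCA for AP-1, and the letters CAGACA for SMAD proteins.
ELN (chr3:11213944-11214243, plus strand): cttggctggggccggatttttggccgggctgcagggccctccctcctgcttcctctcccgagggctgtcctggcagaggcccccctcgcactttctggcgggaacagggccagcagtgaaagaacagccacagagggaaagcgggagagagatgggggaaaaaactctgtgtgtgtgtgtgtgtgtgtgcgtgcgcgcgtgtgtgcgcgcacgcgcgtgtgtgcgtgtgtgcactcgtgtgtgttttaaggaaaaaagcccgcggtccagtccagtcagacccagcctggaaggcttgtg
FBLN1 (chr5:3927129-3927428, minus strand): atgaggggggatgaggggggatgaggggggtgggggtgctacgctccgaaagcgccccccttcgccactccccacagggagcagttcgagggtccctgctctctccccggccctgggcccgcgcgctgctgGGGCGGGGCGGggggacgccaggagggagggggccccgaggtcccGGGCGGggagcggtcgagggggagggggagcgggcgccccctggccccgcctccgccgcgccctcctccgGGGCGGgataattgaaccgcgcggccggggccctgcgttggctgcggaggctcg
FBLN5 (chr7:113526363-113526662, minus strand): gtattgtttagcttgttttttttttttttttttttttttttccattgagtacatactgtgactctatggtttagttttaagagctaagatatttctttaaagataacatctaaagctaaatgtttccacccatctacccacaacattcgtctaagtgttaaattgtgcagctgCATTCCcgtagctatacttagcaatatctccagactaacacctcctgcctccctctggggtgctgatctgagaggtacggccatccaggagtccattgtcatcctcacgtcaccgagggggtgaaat
The FBLN5 window had the lowest GC content of the 9 member windows read, 39.7% with 5 CpG dinucleotides, against a median of 58.7% and 16.0 over 19530 promoters of the same length. This window lies at the outer end of the RefSeq model of FBLN5, and that model overlaps exons of TRIP11 on the same strand. Whether FBLN5 transcripts of these hearts start there was not measured, so the window may not be the promoter in use. The windows of ELN and FBLN1 held 62.3% and 78.3% GC and 19 and 32 CpG dinucleotides. The capitals mark 4 GC boxes for FBLN1, where the first 2 share a base, and 1 TEAD match on the opposite strand for FBLN5, and none of the 5 motifs was found for ELN. GC boxes were present in 4 of the 9 windows (FBN2, FBLN1, FBLN2 and MFAP4) and in 50.6% of all promoters. TEAD matches were present in 3 members (FBLN5, MFAP2 and MFAP5) and 11.8% of promoters, and SMAD matches in 2 members (EMILIN1 and MFAP4) and 15.2% of promoters. TATA boxes and AP-1 sites, in 10.9% and 6.06% of all promoters, were found in 0 of the 9 windows. A match is only a run of letters, and binding was not measured.

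Elastin, the stretchable core itself, had its higher value in the border zone in every animal. ELN (ENSSSCG00000025858, chromosome 3, 11214194 to 11245891, plus strand) had 99.3, 170.3 and 1189 CPM as the lowest, median and highest of the 6 border zone libraries, and 38.9, 61.5 and 95.5 CPM in the remote zone. The ranges did not overlap, and the highest value was that of animal 1022, 4.45 times the next library. The question was whether the gap between regions is larger than the spread among libraries, and edgeR's quasi-likelihood test gave a log2 fold change of 2.46, with a standard error (SE) of 0.57 and an adjusted p = 0.0421 (Benjamini-Hochberg adjustment over all genes tested). With the animal as a block the log2 fold change was 1.81 and the adjusted p = 0.0901, so the call was lost. Without animal 1022 it was 1.36 with adjusted p = 0.0313, and without animal 1323, 1623, 1922 or 3622 the adjusted p was 0.137, 0.111, 0.104 and 0.104. Within animals the rise ran from 1.49-fold in animal 1322 to 30.5-fold in animal 1022, and was 1.98-fold to 4.37-fold in the other 4. In bulk tissue, fewer cells of a type and less RNA per cell cannot be told apart, which holds for every gene below.

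**Figure D1:**
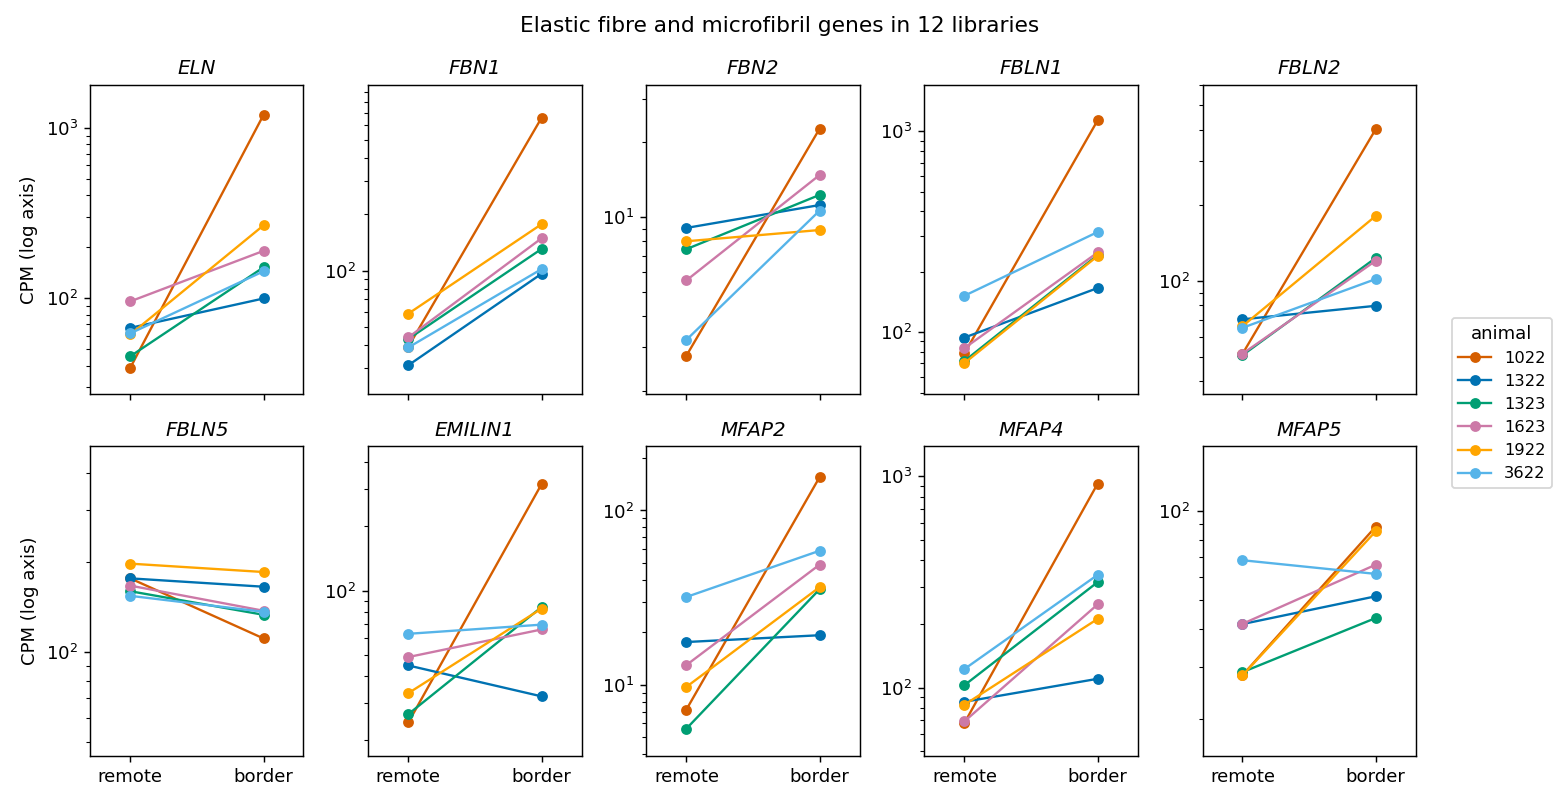
CPM (log axis) of the 10 genes in the remote zone and the border zone, with a line joining the 2 libraries of each of the 6 animals. ELN, FBN1, FBLN1 and FBLN2 have border zone ranges above the remote zone range, and in 9 of the 10 genes the highest border zone point is that of animal 1022, the exception being FBLN5.

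The fibrillins, which polymerize into the microfibril scaffold, differed in level and in the evidence for a change. FBN1 (ENSSSCG00000004658, chromosome 1, 123102011 to 123359649, plus strand), the main fibrillin of adult tissue, had 96.1, 139.6 and 656.8 CPM as the lowest, median and highest in the border zone and 31.1, 41.0 and 58.7 CPM in the remote zone. Every border zone library was above every remote zone library. FBN1 rose by 2.37 on the log2 scale (SE 0.45, adjusted p = 0.0276 by edgeR), and with the animal block by 1.96 with adjusted p = 0.0634. Without animal 1022 the log2 fold change was 1.60 with adjusted p = 0.00744, while the adjusted p was 0.103, 0.108, 0.0729 and 0.0839 without animal 1323, 1623, 1922 or 3622. Outside animal 1022, where the rise was 16.8-fold, the 5 within-animal rises of FBN1 lay between 2.63-fold and 3.39-fold, a narrower band than that of ELN.

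FBN2 (ENSSSCG00000014256, chromosome 2, 131150665 to 131370241, minus strand), a fibrillin best known from development, was read at a lower level. Its lowest, median and highest CPM were 8.88, 11.8 and 22.7 in the border zone and 2.77, 6.51 and 9.06 in the remote zone. The ranges overlapped slightly, and the border zone library was the higher in 6 of 6 animals, by 1.11-fold to 7.99-fold. The log2 fold change of 1.16 (SE 0.32) did not pass the threshold, with adjusted p = 0.0646 by edgeR, 0.0959 with the block and 0.157 without animal 1022.

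Fibulins are secreted glycoproteins that bridge elastin, fibrillin and basement membrane proteins. Of the 3 fibulins of the list 2 were called, where 2.07% of all genes tested were. FBLN1 (ENSSSCG00000000010, chromosome 5, 3839498 to 3927178, minus strand), which binds fibronectin and elastin, had 166.0, 245.9 and 1136 CPM in the border zone and 70.2, 80.9 and 151.9 CPM in the remote zone as the lowest, median and highest. The ranges did not overlap. FBLN1 rose by 2.10 on the log2 scale (SE 0.44, adjusted p = 0.0338 by edgeR), with an adjusted p = 0.0746 under the animal block. Without animal 1022 it was 1.36 with adjusted p = 0.0187, and the adjusted p was 0.134, 0.114, 0.0886 and 0.0839 without animal 1323, 1623, 1922 or 3622. Without only the border zone library of animal 3622 it was 0.0504, and the call was lost.

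FBLN2 (ENSSSCG00000011609, chromosome 13, 70757255 to 70830430, minus strand), a fibulin of developing valves and vessel walls, had 79.7, 122.0 and 401.7 CPM in the border zone and 50.7, 58.3 and 70.4 CPM in the remote zone. Again each border zone library was above each remote zone library. FBLN2 rose by 1.51 on the log2 scale (SE 0.34, adjusted p = 0.0404 by edgeR), with an adjusted p = 0.0820 under the block. Without animal 1022 it was 0.998 with adjusted p = 0.0456, and the adjusted p was 0.154, 0.125, 0.104 and 0.101 without animal 1323, 1623, 1922 or 3622. Within animal 1322 the border zone value was 1.13 times the remote zone value, the smallest rise of FBLN2 among the 6 animals, and within animal 1022 it was 7.81 times.

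FBLN5 (ENSSSCG00000002444, chromosome 7, 113423629 to 113526412, minus strand), which tethers tropoelastin and the lysyl oxidase LOXL1 to cells during fiber assembly, was not called. Its lowest, median and highest CPM were 111.2, 137.1 and 185.7 in the border zone and 154.4, 171.9 and 198.0 in the remote zone. The ranges overlapped, and the lowest of the 12 values was the border zone value of animal 1022, the library in which the other 9 genes were at their highest. With TMM scaling the border zone value was the lower in 6 of 6 animals and the log2 fold change was -0.25 (SE 0.16), while scaling by library totals turned the sign, to 0.016. Neither passed the threshold, with adjusted p = 0.334 by edgeR under TMM, 0.243 with the block and 0.963 under library totals. Without animal 1022 the log2 fold change under TMM was -0.18, with adjusted p = 0.598 by edgeR. Exons of FBLN5 overlap those of TRIP11 on the same strand, so reads there may be lost or assigned to either gene. TRIP11 lay between 13.7 and 28.0 CPM, with a log2 fold change of 0.15 (SE 0.16, adjusted p = 0.584 by edgeR).

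EMILIN1, an elastin-interface protein, and MFAP2 and MFAP5, small glycoproteins of the microfibril (MAGP-1 and MAGP-2), did not pass the threshold. EMILIN1 (ENSSSCG00000008557, chromosome 3, 112031910 to 112039928, minus strand) had 32.1, 76.0 and 314.9 CPM in the border zone and 24.3, 39.0 and 63.0 CPM in the remote zone as the lowest, median and highest. Its border zone value was the higher in 5 of 6 animals and 0.718 times the remote zone value in animal 1322. The log2 fold change was 1.43 (SE 0.46, adjusted p = 0.0973 by edgeR), with adjusted p = 0.192 under the block, and was 0.62 without animal 1022.

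MFAP2 (ENSSSCG00000003479, chromosome 6, 75607515 to 75615680, minus strand) had 19.2, 42.6 and 155.4 CPM in the border zone and 5.60, 11.3 and 31.9 CPM in the remote zone. Its border zone value was the higher in 6 of 6 animals, by 1.09-fold in animal 1322 to 21.3-fold in animal 1022, with overlapping ranges. The log2 fold change of 2.06 (SE 0.52) missed the threshold at adjusted p = 0.0509 by edgeR and 0.0820 with the block, and passed it without animal 1322 at adjusted p = 0.0484. Without animal 1022 it was 1.35, with adjusted p = 0.148.

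MFAP5 (ENSSSCG00000031712, chromosome 5, 62742520 to 62757522, plus strand) had 43.7, 63.6 and 88.4 CPM in the border zone and 28.0, 35.2 and 68.2 CPM in the remote zone. The ranges overlapped, and in animal 3622 the border zone value was 0.90 times the remote zone value. The log2 fold change was 0.75 (SE 0.25, adjusted p = 0.107 by edgeR), with adjusted p = 0.102 under the block and a log2 fold change of 0.56 without animal 1022. Its highest border zone library, again that of animal 1022, was only 1.04 times the next.

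MFAP4 (ENSSSCG00000036007, chromosome 12, 60141488 to 60144214, plus strand), a fibrinogen-related protein that binds elastin and fibrillin and is made largely by smooth muscle cells, had 110.0, 281.6 and 923.6 CPM in the border zone and 68.0, 84.3 and 122.4 CPM in the remote zone. The ranges overlapped only because animal 1322 was low in the border zone and animal 3622 high in the remote zone, and 6 of 6 animals had the higher value in the border zone. MFAP4 rose by 2.02 on the log2 scale (SE 0.41, adjusted p = 0.0320 by edgeR), with an adjusted p = 0.0783 under the block. Without animal 1022 it was 1.40 with adjusted p = 0.0313, and the adjusted p was 0.129, 0.111, 0.0825 and 0.0937 without animal 1323, 1623, 1922 or 3622. Exons of MFAP4 overlap those of MAPK7 on the opposite strand, and in nondirectional libraries reads of the overlap cannot be told apart. MAPK7 lay between 31.5 and 73.4 CPM with a log2 fold change of 0.41 (SE 0.17, adjusted p = 0.169 by edgeR).

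Together, 5 of the 10 members were called, ELN, FBN1, FBLN1, FBLN2 and MFAP4, all higher in the border zone, where 2.07% of all genes tested were called and 2.06% were called higher. The median log2 fold change was 1.76 over the members and 0.04 over all genes tested, and that of the members was 1.17 without animal 1022. With the animal as a block, which removes differences among pigs, 0 of 10 members were called by edgeR, where 0.296% of all genes were. At an unadjusted p under 0.05, 8 of 10 members passed with the block, where 29.4% of all genes did. The member median was then 1.49. Without animal 1022, 5 of 10 members were called, the same 5, where 1.18% of genes were called. With the block and without animal 1022, 6 members were called (the 5 and MFAP2), where 6.19% of genes were called. Without animal 1323, 1623, 1922 or 3622 in turn, 0 members were called by edgeR, where 0.0218%, 0%, 0.107% and 0% of all genes were, while the member median lay between 1.72 and 1.92. At an unadjusted p under 0.05, 9, 9, 8 and 9 of the 10 members passed in these fits, where 19.9%, 19.4%, 22.2% and 17.7% of all genes did. Without animal 1322, 6 members were called, where 3.72% of genes were. ELN lost its call under DESeq2 size factors, with no filter and with at least 10 counts in every library (adjusted p = 0.0506, 0.0838 and 0.0515 by edgeR), and FBLN2 under the first 2 of these (adjusted p = 0.0520 and 0.0503). The DESeq2 Wald test called 8 members (all but FBLN5 and MFAP5), where it called 9.76% of genes.

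Counted without a model, all 6 animals had more of 7 members in the border zone, where 11.7% of all genes tested had this. FBLN5 was the 1 member lower in all 6 with TMM scaling, where 11.1% of genes were, although its log2 fold change was 0.016 with library totals. For 4 members (ELN, FBN1, FBLN1 and FBLN2) the border zone range lay above the remote zone range, where 1.99% of all genes tested had this.

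**Figure D2:**
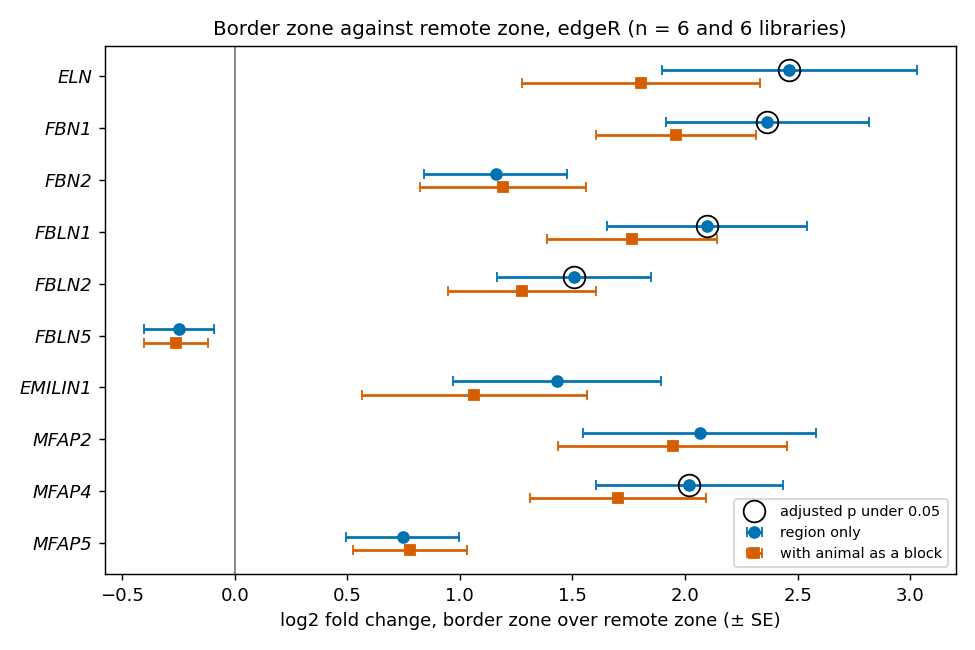
Log2 fold change of each gene, border zone over remote zone, with its standard error, from the fit with region only (circles) and with the animal as a block (squares), and with rings around the 5 genes with an adjusted p under 0.05. FBLN5 lies below 0, at -0.25, and is at 0.016 when scaled by library totals, and no gene has a ring for the fit with the block.

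The size of the difference depended on the animal. The median within-animal log2 difference of the 10 members was 3.73 in animal 1022, 1.61 in animal 1323, 1.52 in animal 1922, 1.31 in animal 1623, 0.97 in animal 3622 and 0.31 in animal 1322. The border zone library of animal 1022 had the highest border zone value of 9 members and that of animal 1322 the lowest of 7. Among remote zone libraries, that of animal 3622 was highest for 5 members and that of animal 1022 lowest for 4, so animal 1022 held both the high end of the border zone and much of the low end of the remote zone. This library gave 58.3% of the summed border zone CPM of ELN, 50.1% of FBN1, 48.4% of FBLN1 and 43.0% of MFAP4, but 22.3% of MFAP5 and 12.8% of FBLN5.

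**Figure D3:**
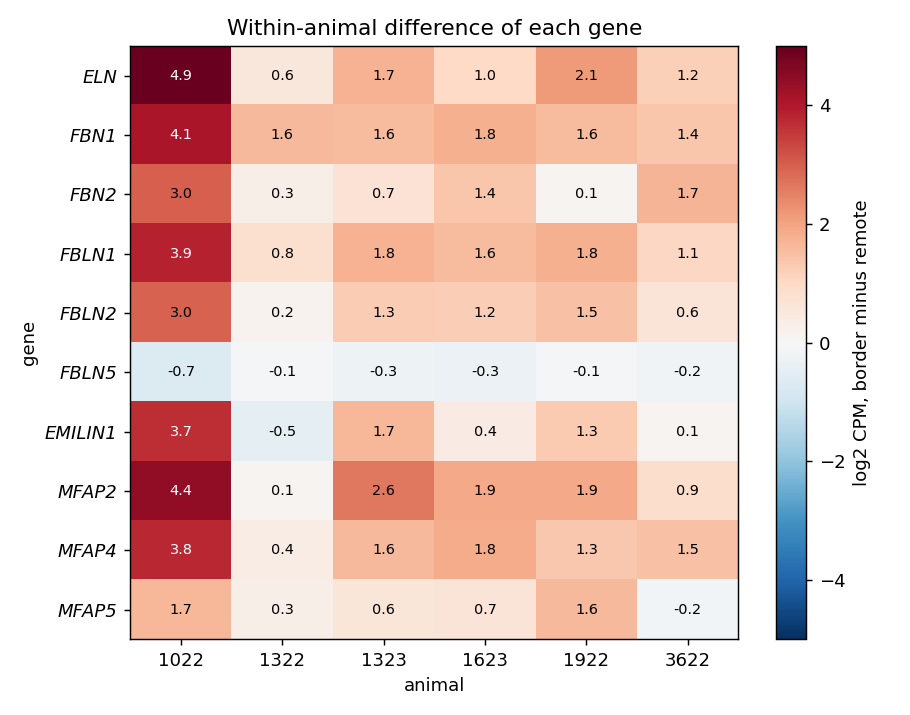
Border zone minus remote zone log2 CPM of each gene (rows) in each animal (columns). Animal 1022 has the highest value for 9 genes, with 4.93 for ELN, and animal 1322 lies below 1 except for FBN1, with 1.62. The FBLN5 row is below 0 in all 6 animals with TMM scaling, while its log2 fold change is 0.016 with library totals.

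Fibroblast markers were also higher in the border zone. The summed CPM of the 10 fibroblast markers ran from 2960 to 59212 in the border zone and from 1068 to 2655 in the remote zone. It was higher in 6 of 6 animals, and 6 of the 10 markers were called, where 2.07% of all genes tested were. By animal its log2 difference was 5.79 in 1022, 2.98 in 1922, 2.42 in 1323, 2.05 in 1623, 1.11 in 3622 and 0.78 in 1322, so animals 1022 and 1322 were first and last as for the members. The same held for the smooth muscle, macrophage, endothelial and endocardial sums, and not for the pericyte, adipocyte and mesothelial sums. The 3 collagens carried most of the fibroblast sum, and the other 7 markers summed to 467 to 2542 CPM in the border zone and 310 to 558 CPM in the remote zone, higher in 6 of 6 animals. Their log2 difference was 2.96 in animal 1022 and 0.43 to 1.60 in the other 5, and animal 1322, at 0.52, was not the last. Over the 10 markers the median log2 fold change was 1.67, from 0.74 for DPT to 4.05 for COL1A1. The marker calls are from the fit with region only, which called no gene at all without animal 1623 or without animal 3622. THY1, also listed, had no identifier. The 7 smooth muscle markers summed to 572 to 2641 CPM in the border zone and to 350 to 710 CPM in the remote zone, higher in 5 of 6 animals, with 0 called, and outside animal 1022 the log2 difference of the sum lay between -0.17 and 0.62. The sum hides a split, since the median log2 fold change of these markers was 1.54. MYH11, ACTA2, TAGLN, CNN1 and LMOD1 had 1.13 to 1.91, while SMTN had -0.57 and MYOCD -0.35. SMTN had a median of 166.1 CPM in the border zone and 285.7 CPM in the remote zone. Macrophage markers (8 genes) summed to 100 to 1244 CPM against 95.3 to 190 CPM, higher in 5 of 6 animals, with 0 called and a median log2 fold change of 1.58. The 1244 CPM was that of animal 1022, and the next border zone library had 285 CPM. Cardiomyocyte markers (9 genes) summed to 10631 to 60335 CPM against 49461 to 91788 CPM, lower in 6 of 6 animals with 0 called, and the endothelial markers (8 genes) to 369 to 543 CPM against 264 to 620 CPM. None of the defining markers of these 5 lists was at 0 in any library. The part of cell makeup in the differences of the members was not tested.

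Smaller lists gave sums of 283 to 523 CPM in the border zone and 237 to 397 CPM in the remote zone for 4 pericyte markers, and of 73.6 to 223 CPM and 38.6 to 89.5 CPM for 3 endocardial markers, of which CYTL1 was at 0 in some libraries. The 4 adipocyte markers summed to 1.07 to 39.9 CPM and 0.728 to 1.84 CPM, with ADIPOQ and LEP at 0 in some libraries. The 3 mesothelial markers with an identifier, of 6 listed, summed to 3.61 to 8.68 CPM and 2.94 to 6.56 CPM, with UPK3B and BNC1 at 0 in some libraries. UPK3B, BNC1, CYTL1 and LEP were not tested, and none of the other genes of these 4 lists was called.

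Levels of different genes can be compared only per length, here as CPM per kb of exon. In the remote zone FBLN5 had the highest median, 60.2 CPM per kb, followed by MFAP4 with 47.3, MFAP5 with 34.1, FBLN1 with 24.0, ELN with 17.4, FBLN2 with 13.6, EMILIN1 with 9.57, MFAP2 with 7.11, FBN1 with 4.31 and FBN2 with 0.633 CPM per kb. The same scale gave another order in the border zone, where MFAP4 came first with 158.1, then FBLN1 with 73.1, MFAP5 with 61.6, ELN with 48.1, FBLN5 with 48.0, FBLN2 with 28.5, MFAP2 with 26.7, EMILIN1 with 18.6, FBN1 with 14.7 and FBN2 with 1.14 CPM per kb. In both regions each gene's range overlapped that of the next gene in the order, except for FBN1 and FBN2, whose ranges were apart. By median, the elastin-assembly gene FBLN5 was first in the remote zone and level with ELN in the border zone, where ELN was the higher in 3 of 6 libraries. Exon lengths were those of the RefSeq gene models, from 1033 bases for MFAP5 to 10278 bases for FBN2, and the isoforms in use were not measured.

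**Figure D4:**
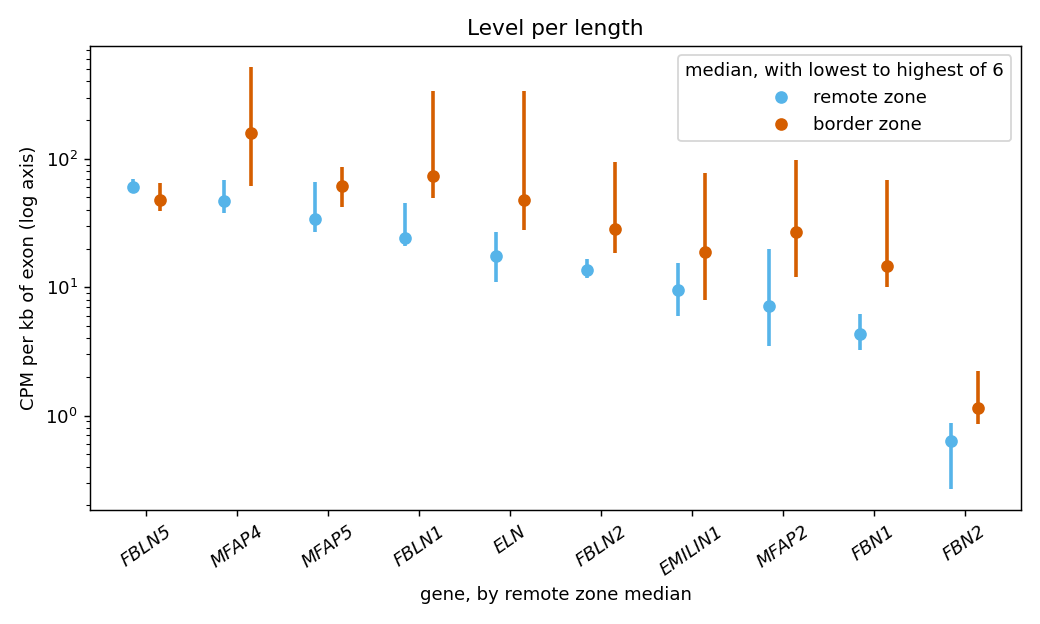
CPM per kb of exon (log axis) of the 10 genes, with the median as a point and a bar from the lowest to the highest of the 6 libraries of each region. FBN2 is the lowest in both regions, at 0.633 and 1.14 CPM per kb, and MFAP4, at 47.3 and 158.1, is second in the remote zone and first in the border zone.

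Ratios within a library ask whether a pair of members changed unequally, and 5 were tested over the 6 animals by the two-sided exact permutation test of sign changes, whose smallest p is 0.03125. The FBLN5 to ELN log2 ratio was -0.65 on average in the border zone and 1.54 in the remote zone. The border zone had the lower ratio in 6 of 6 animals, by -0.67 in animal 1322 to -5.60 in animal 1022, with a mean difference of -2.19 ± 1.76 (SD, n = 6, exact p = 0.03125, and 0.0781 after Benjamini-Hochberg adjustment over the 5 ratios). Without animal 1022 the mean difference was -1.51. The FBLN1 to FBLN2 ratio was raised in 6 of 6 border zone libraries against their remote zone partners, by 0.32 to 0.89, with a mean of 0.51 ± 0.22 (SD, n = 6, exact p = 0.03125, adjusted 0.0781). It was the ratio with the smallest spread, and its direction and size held without animal 1022 (0.44).

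The FBN2 to FBN1 ratio differed by -0.79 ± 0.66 (SD, n = 6, exact p = 0.0625, adjusted 0.0781), with a lower value in the border zone of 5 of 6 animals, all but 3622. The MFAP5 to MFAP2 ratio differed by -1.20 ± 1.09 (SD, n = 6, exact p = 0.0625, adjusted 0.0781), lower in 5 of 6 animals, all but 1322. ELN and FBN1, core and scaffold, had a ratio that differed by -0.08 ± 0.74 (SD, n = 6, exact p = 0.781, adjusted 0.781), above 0 in 3 animals and below 0 in 3. This mean turned to 0.11 without animal 1322 and to 0.059 without animal 1623. With 6 animals and 5 ratios, 0 ratios passed the adjusted threshold in this exact test, and 2 had an unadjusted p under 0.05. Both of these were at the smallest p that the test can give. After adjustment over 5 ratios, that p passes only if nearly all of the 5 ratios reach it. These 2 ratios could therefore not pass alone, however large their change, and nothing is concluded from their adjusted p. When the pairing by animal was left out, the exact permutation test of the region labels gave adjusted p = 0.0108 for FBLN5 to ELN and 0.0325 for MFAP5 to MFAP2.

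**Figure D5:**
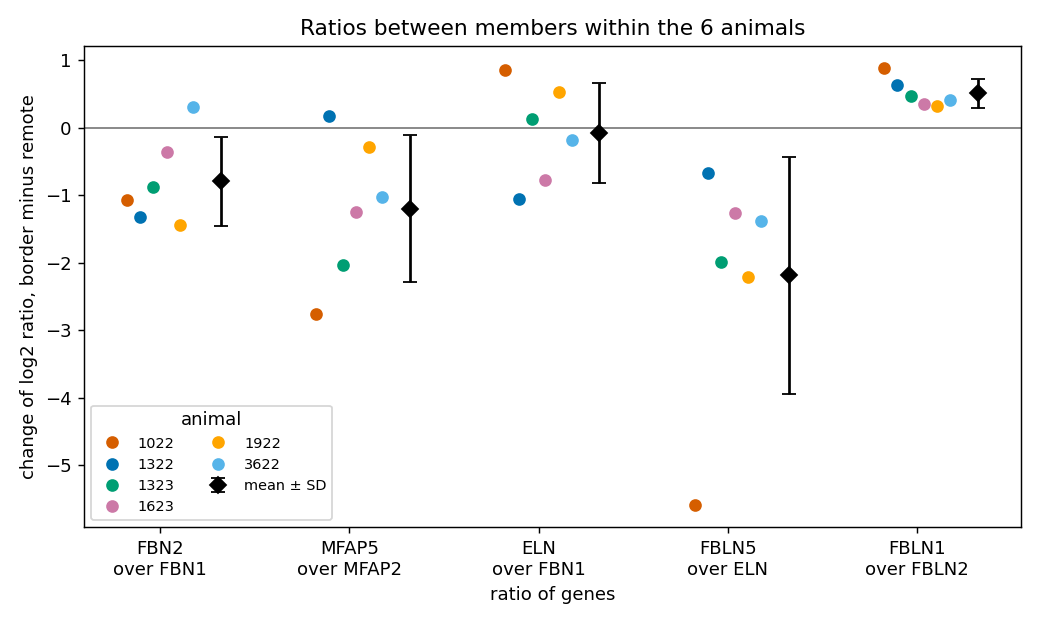
Change of the log2 ratio of 5 gene pairs from the remote zone to the border zone, with a point per animal and a diamond for the mean ± SD (n = 6 animals). FBLN5 over ELN lies below 0 and FBLN1 over FBLN2 above 0 in 6 of 6 animals, while ELN over FBN1 lies on both sides of 0.

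Across the 12 libraries the levels of the members other than FBLN5 went together. As a description over libraries that share animals and regions, Pearson's r of log2 CPM over the 36 pairs without FBLN5 ran from 0.46 to 0.97 with a median of 0.89. Over the 10 libraries without animal 1022 the median was 0.76, and over the 6 remote zone libraries it was 0.36, with pairs from -0.47 to 0.95. The 9 pairs with FBLN5 had r from -0.85 to -0.53 with a median of -0.69, which was -0.34 without animal 1022. Over the remote zone libraries alone they ran from -0.61 to 0.47, with a median of -0.31.

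The genes outside the list whose log2 CPM was most like that of ELN were SH3D19 (r = 0.984), CYBRD1 (0.979), COL1A1 (0.978), GNG12 (0.977) and VCAN (0.977). For FBN1 they were SH3D19 (r = 0.983), MAPK8IP1 (0.980), FSTL1 (0.979), LTBP3 (0.978) and FGF11 (0.978). SH3D19 came first for both genes. Without animal 1022, r of these genes lay between 0.94 and 0.97.

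The wider elastic fiber pathway was read from a list of 44 genes, of which 41 were tested, 9 were called higher and 0 lower, against the 2.07% of all genes. Their median log2 fold change was 0.81, and 32 of 41 were above 0. With the animal block 0 of 41 were called by edgeR, with adjusted p of 0.0564 to 0.0895 for the 9 genes. Without the block, 26 of the 41 had an unadjusted p under 0.05, where 24.7% of all genes tested had. Without animal 1022, 6 of the list were called, where 1.18% of genes were, and without animal 1322, 13 were, where 3.72% of genes were. Without each of animals 1323, 1623, 1922 and 3622, 0 of the list were called, in fits that called at most 0.107% of all genes.

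The lysyl oxidases, which cross-link elastin and collagen, had their higher value in the border zone in all 6 animals for 5 of 5 genes, and 3 were called. Of all genes tested, 11.7% were higher there in all 6 animals and 2.07% were called. LOX had 12.0, 30.0 and 205.1 CPM as the lowest, median and highest in the border zone and 3.76, 6.97 and 8.38 CPM in the remote zone, and rose by 3.11 on the log2 scale (SE 0.60, adjusted p = 0.0276 by edgeR). LOXL1, the partner of FBLN5 in fiber assembly, had 29.5, 63.9 and 272.2 CPM against 7.85, 15.4 and 20.9 CPM and rose by 2.57 (SE 0.50, adjusted p = 0.0276 by edgeR). LOXL2 had 29.5, 46.0 and 127.8 CPM against 12.6, 18.7 and 25.6 CPM and rose by 1.58 (SE 0.32, adjusted p = 0.0312 by edgeR). In each of these 3 genes the border zone range lay above the remote zone range, where 1.99% of all genes tested had this. LOXL3 and LOXL4 had log2 fold changes of 1.98 and 1.64 with adjusted p = 0.0605 and 0.0850 by edgeR.

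Of the 4 latent TGF-beta binding proteins, which dock on fibrillin, 2 were called, where 2.07% of all genes tested were. LTBP2 had 38.2, 69.0 and 449.6 CPM in the border zone and 8.96, 14.0 and 17.6 CPM in the remote zone, with a log2 fold change of 3.31 (SE 0.58, adjusted p = 0.0237 by edgeR), above that of every member. LTBP3 had 31.1, 57.7 and 294.3 CPM against 12.1, 16.5 and 23.5 CPM, with 2.43 (SE 0.49, adjusted p = 0.0295 by edgeR). In both genes the border zone range lay above the remote zone range, where 1.99% of all genes tested had this. LTBP1 and LTBP4 had log2 fold changes of 1.62 and 0.78 and were not called.

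Of 7 fibrillin-binding ADAMTS and ADAMTSL genes, secreted proteins of the microfibril surface, 2 were called, where 2.07% of all genes tested were. ADAMTS17 had 1.80, 5.28 and 46.3 CPM in the border zone and 0.291, 0.756 and 1.81 CPM in the remote zone, with a log2 fold change of 3.66 (SE 0.81, adjusted p = 0.0364 by edgeR). ADAMTSL2 had 13.6, 18.6 and 48.2 CPM against 5.74, 7.26 and 11.4 CPM, with 1.49 (SE 0.33, adjusted p = 0.0356 by edgeR). Only ADAMTSL2 of these 2 had a border zone range above the remote zone range, where 1.99% of all genes tested had this.

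Among 9 proteases that can cut elastin, 6 were tested and 2 were called, where 2.07% of all genes tested were. The gelatinase MMP2 had 158.4, 337.9 and 1552 CPM in the border zone and 63.3, 101.8 and 148.9 CPM in the remote zone, without overlap, and rose by 2.27 on the log2 scale (SE 0.49, adjusted p = 0.0338 by edgeR). The lysosomal protease CTSL had 0.146, 1.38 and 4.86 CPM against 0.104, 0.196 and 0.420 CPM, and was higher in 5 of 6 animals with a log2 fold change of 3.08 (SE 0.68, adjusted p = 0.0350 by edgeR). That level is low, and reads shared with related copies may have been split. MMP7, MMP9 and MMP12 were under the filter, although MMP9 reached 550 CPM in 1 border zone library, against 0 to 0.468 CPM in the remote zone.

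The other fibulin and emilin family genes gave 0 calls of 8 and the receptors for elastic fiber proteins gave 0 of 11. Of the 8 family genes, 7 had log2 fold changes above 0 and the median was 0.75. EMILIN2, a relative of EMILIN1 and the exception, had 129.6, 223.4 and 345.3 CPM in the border zone and 226.7, 318.6 and 396.6 CPM in the remote zone, with a log2 fold change of -0.53 (SE 0.23, adjusted p = 0.181 by edgeR), and was named after its values were seen. At an unadjusted p under 0.05, 5 of the 8 family genes, 4 of them above 0 and EMILIN2 below, and 4 of the 11 receptor genes passed by edgeR, against 24.7% of all genes tested.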

How the data were processed

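The authors deposited unnormalized counts of reads on genes for 12 libraries, from poly(A)-enriched, nondirectional, paired-end sequencing. Their reads were checked with FastQC 0.12.1 and MultiQC, aligned to Sscrofa11.1 (Ensembl release 113) with STAR 2.7.10a and counted with featureCounts 2.16.1. The counting options for shared reads are not given in the sources used here. PCR copies and separate molecules could not be distinguished.

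Symbols were paired with 15623 of 35682 identifiers. The analysis used R 4.3.3 with edgeR 4.0.16 (filterByExpr, TMM, robust quasi-likelihood test with region as the only term, Benjamini-Hochberg adjustment, calls at adjusted p under 0.05) and DESeq2 1.42.0, and Python 3.11.15 with NumPy 2.4.6 and matplotlib 3.10.9. Standard errors were taken as the size of the log2 fold change over the square root of F. Log2 CPM had a prior count of 2.

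By the sample titles both libraries of a number come from the same animal, so the numbers pair them. Within animals, deviations from the means of the regions had a mean r of 0.35 over genes, above 0.1 in 4 of 6 pairs. The other pairs were those of animal 1022 (r = -0.03) and animal 1322 (r = 0.07). These animals also had the largest and smallest median within-animal differences of the members, 3.73 and 0.31. The closest pair of libraries differed by a chi-square of 27.3 per gene, far over sampling noise.

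The members and lists were chosen with earlier results of these data known. The rule for named genes took the 10 members, the pathway genes called, and the 5 genes nearest to ELN and to FBN1 by r. Named outside it, after their values were seen, were LOXL3, LOXL4, LTBP1, LTBP4, EMILIN2 and the proteases under the filter, and TRIP11 and MAPK7 for their overlap with members. Tried besides were the animal block, another test (DESeq2 Wald), size factors of DESeq2, scaling by library totals, leaving genes unfiltered, a minimum of 10 counts per library, removal of mitochondrial genes and leaving out each animal. Leaving out the border zone library of 1022 or of 3622, and the block without animal 1022, were chosen after seeing the data. The promoter window of 1 member is not reported here. On simulated data for border against remote (13701 genes, 200 changed) edgeR recovered 85% of 4-fold and 31% of 2-fold changes and called 5 unchanged genes.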

Additional observations from a re-analysis of the deposited data

Results flagged for a closer look

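In 30 groups of 6 libraries (the 10 members and 5 ratios in each region), 3 held a library farther from the rest than Dixon's critical value of 0.625 of the group's range allows, where chance gives about 1 in 20. All 3 were the border zone library of animal 1022. FBN1, the main fibrillin, was at a log2 CPM of 9.36 there, with the nearest border zone library at 7.47. FBLN1 was at 10.15, with the nearest at 8.30. The log2 ratio of FBLN5 to ELN was -3.42, with the nearest at -0.52. The same library had the highest fibroblast marker sum (59212 CPM) and the lowest cardiomyocyte marker sum (10631 CPM) of the border zone, and the part of these in the 3 values was not tested.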

How the results depend on the processing

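Against 287 genes and 5 members called, the replicate block gave 41 genes and 0 members, the DESeq2 Wald test 1678 and 8, library totals 1551 and 9, no filter 139 and 3, and DESeq2 size factors 211 genes and 3 members. At least 10 counts in every library gave 149 genes and 4 members, the fit without the border zone library of animal 3622 156 and 4, and the block without animal 1022 856 and 6. Leaving out each animal gave 0 to 519 genes and 0 to 6 members. At an unadjusted p under 0.05 edgeR still passed 2662 genes without animal 1623 and 2448 without animal 3622. Library totals moved the median of all genes from 0.04 to 0.32 and turned FBLN5 to 0.0159.

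Over 160 alternative values of single members, 119 kept direction and side of the threshold, 31 fell short of it, 9 came to pass it and 1 reversed. Without the pairing by animal, the differences of -1.20 (MFAP5 to MFAP2) and -2.19 (FBLN5 to ELN) passed, with adjusted p = 0.0325 and 0.0108 in the exact permutation test. Here the paired libraries were treated as independent, and the smallest p that can be reached is lower. Leaving out single animals moved ELN to FBN1 between -0.27 and 0.11, with the reversals being 0.11 without 1322 and 0.059 without 1623. The other 4 ratios kept their sign, with 5 animals too few for an exact p under 0.0625. The cause of each change was not tested. With 6 animals and this spread, smaller changes can be missed.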
